A study of Homo sapiens with 9 samples.

Results

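Embryoid bodies grown for 6 days with BMP4 were compared with undifferentiated human embryonic stem cells (hESC), which the labels give as the same line. The comparison took every named probe that stood above background (detection p below 0.05) on 3 or more of 9 arrays. By that rule 21683 of 47323 probes on the array were detected. The 15592 of these with a gene name stand for 11991 genes. Every named probe passed the rule, so the annotation, and not detection, set which genes were tested. A gene given below as not among the genes tested has no probe under its name here. That does not show that its RNA was below background. The comparison uses 6 of the 9 arrays of the series, and the other 3 hold perivascular progenitors grown on from such embryoid bodies. By the labels every sample is H9, an established line of embryonic stem cells. For the embryoid bodies, the cells were lifted off their feeders with dispase and kept as floating aggregates in medium with serum replacement and 40 nM BMP4 (3 arrays, day 6). The hESC grew attached on mouse embryonic fibroblasts with bFGF at 4 ng/ml (3 arrays). Feeders and bFGF are given for the hESC and not for the embryoid bodies, so BMP4, aggregation, the loss of feeders and the lack of added bFGF cannot be told apart in any difference below. No group of embryoid bodies without BMP4 was analysed here.

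Human embryonic stem cells in culture resemble the epiblast just before gastrulation. In them NODAL and activin signals through SMAD2 and SMAD3, together with FGF, keep the pluripotent state, while WNT and NODAL together start primitive streak genes. BMP4 signals through SMAD1, SMAD5 and SMAD9, which switch on ID genes and, in primed human cells, genes of amnion, trophoblast and mesoderm. An embryoid body is a mixed tissue whose outer layer often takes on features of visceral endoderm or yolk sac.

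The label check put 1 of 9 libraries of the series at odds with its group's labels. Apart from that count, the array hESC 3 stood apart from hESC 1 and 2: on it, 415 genes lay at least 2-fold from the mean of the other two, 158 higher and 257 lower. The pair hESC 1 and hESC 2 had 2 genes 2-fold apart, and the pairs of embryoid body arrays had 6 to 43. Calls below are therefore given for both settings, and where 2 log2 changes stand together the second leaves out hESC 3. A single log2 change is that with all arrays. Between 18765 and 21172 probes were detected per array. The labels do not say whether arrays of a group come from separate cultures, so p-values measure the spread between arrays within groups, which may be technical. That spread is pooled over all 9 arrays, progenitors included, and progenitor array 2 lay at least 2-fold from the rest of its group on 590 genes. A standard error (SE) can thus exceed what the compared arrays show. For NPTX1 it was 0.32, beside standard deviations of 0.12 in embryoid bodies and 0.15 in hESC. A gene can miss the threshold below through spread among progenitors.

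Levels are normalized log2 intensities, and a log2 change is the embryoid body mean minus the hESC mean. A gene passed the test if its adjusted p was under 0.05 (limma, Benjamini-Hochberg over all genes) and its change at least 2-fold. With all arrays 371 of 11991 genes passed (3.09%), 180 higher (1.50%) and 191 lower (1.59%) in embryoid bodies. Without hESC 3, 433 passed (3.61%), 189 higher (1.58%) and 244 lower (2.03%). The number that passed in both fits was 302 (2.52%), of which 150 were higher (1.25%) and 152 lower (1.27%), and none passed in opposite directions. In what follows "rose", "fell" and "changed" are kept for genes that passed in both fits. The median log2 change of all genes was −0.01 in either fit. Each list count below stands beside these shares of all genes, 1.25% that rose and 1.27% that fell. The lists were chosen with earlier results of these data known, so their counts describe the data and test nothing. In a further fit the 3 embryoid body arrays were averaged to 1 value, hESC 1 and 2 to another, and progenitor arrays 1 and 3 to another. In it 344 of the 371 genes were still 2-fold apart. With 1 embryoid body value and 2 residual degrees of freedom, that fit has little power to call a gene. Its spread came from the distance of hESC 3 and of progenitor array 2 from their groups. Every call in this report rests on treating the averaged arrays as replicates.

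**Figure D1:**
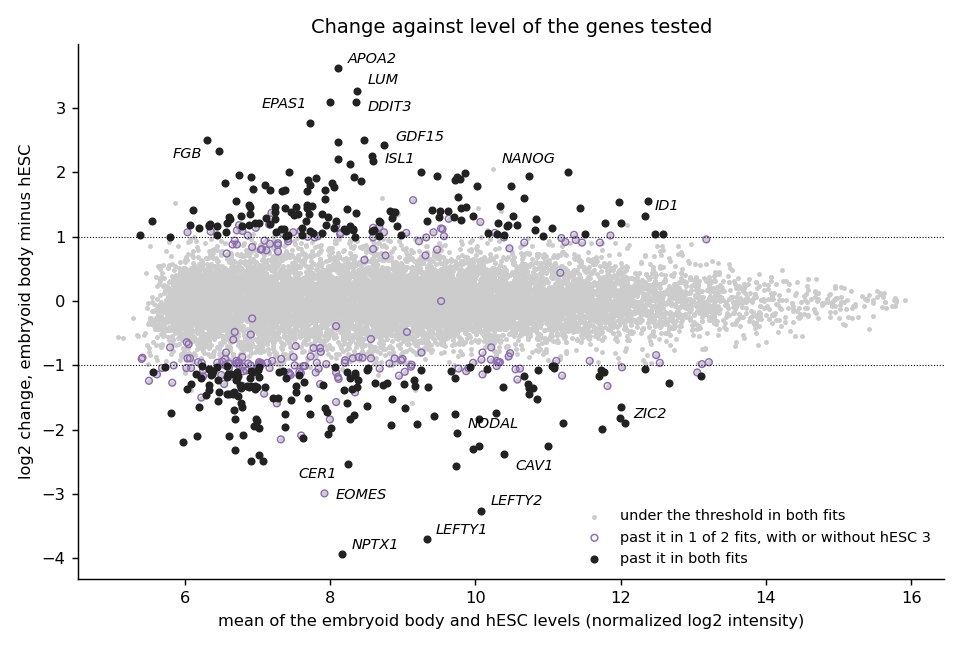
Log2 change (embryoid body minus hESC, all arrays) of each gene against the mean of its embryoid body and hESC levels (normalized log2 intensity). Black points passed the test with and without hESC 3 (302 genes in all), open points in 1 of the 2 fits, and dotted lines mark a 2-fold change; APOA2 at 3.62 and NPTX1 at −3.94 are the ends of the range.

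The genes of the NODAL and activin pathway held the largest falls after NPTX1 in the fit of all arrays. Of 21 tested genes of this pathway, 7 fell, 1 rose and 13 did not pass in both fits, and the list's median was −0.31 (−0.34 without hESC 3). Among the ligands, NODAL had levels of 8.70, 8.75 and 8.71 in embryoid bodies, against 10.99, 11.08 and 10.24 in hESC. All 3 embryoid body arrays lay more than 2-fold below the lowest hESC array, and the log2 change was −2.05 (SE 0.20, limma adjusted p = 0.000456) or −2.32. GDF3, a relative of NODAL made by pluripotent cells, fell (−1.19 or −1.39). INHBE, the activin E subunit, known chiefly from liver, went the other way: it read 10.72, 10.66 and 10.77 in embryoid bodies, against 8.56, 8.55 and 9.25 in hESC. Its log2 change was 1.93 (SE 0.20, limma adjusted p = 0.000577) or 2.16, and INHBE was the single member of the pathway that rose.

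The secreted antagonists of the pathway are themselves NODAL targets. LEFTY1, which blocks the NODAL receptor complex, read 7.60, 7.44 and 7.41 in embryoid bodies, against 10.93, 10.92 and 11.71 in hESC. Its change of −3.70 (SE 0.20, limma adjusted p = 2.93e-05) was −3.44 without hESC 3, the array with the highest level. LEFTY2, its near-identical neighbour whose transcripts the probes may share, changed by −3.26 or −2.96. CER1, which binds NODAL, BMP and WNT ligands, stood at 7.29, 6.89 and 6.78 in embryoid bodies, against 10.11, 10.08 and 8.36 in hESC, so that hESC 3 lay between the groups (−2.53 or −3.10). FST, the activin-binding follistatin, passed without hESC 3 alone: its levels were 10.64, 10.63 and 10.58 in embryoid bodies, against 12.47, 12.71 and 10.14 in hESC (log2 change −1.16, limma adjusted p = 0.193, or −1.98, limma adjusted p = 0.00154). The groups overlap for FST because hESC 3 lies below every embryoid body array.

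Of the receptors, ACVR2B, a type II activin receptor, fell (−1.15 or −1.17), while ACVR2A (−0.57) and ACVR1B (0.15) did not pass. PMEPA1, a target that restrains TGF-beta and activin signals, read 6.65, 7.20 and 7.01 in embryoid bodies, against 8.58, 8.55 and 8.25 in hESC (−1.51 or −1.61). The signal carriers SMAD2 (0.09), SMAD3 (−0.26) and SMAD4 (−0.31), and FOXH1 (−0.19), the factor that brings SMAD2 to NODAL targets, stayed under 2-fold. These are bulk RNA measurements, in which fewer cells of a type and less RNA per cell cannot be told apart.

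Of 31 tested genes of the BMP pathway 5 rose and 2 fell, and all 5 risers are among the 10 targets tested: TFAP2A, ID1, HEY1, DLX3 and GATA2. Without background correction 2 genes of the pathway were higher. ID1, an inhibitor of basic helix-loop-helix factors and the classic BMP target, read 12.94, 13.03 and 13.04 in embryoid bodies, against 11.42, 11.50 and 12.11 in hESC. The change was 1.33 (SE 0.19, limma adjusted p = 0.00212) or 1.55, with no overlap between the groups. ID2 (0.65) and ID3 (0.73) stayed under 2-fold, as did MSX1 (0.15) and MSX2 (0.20). The ligand BMP2 and the receptor BMPR2 went the other way. BMP2 levels were 7.48, 7.62 and 7.42 in embryoid bodies, against 9.28, 9.48 and 7.92 in hESC (−1.38 or −1.87). Leaving out any array other than hESC 3 raised the adjusted p of BMP2 above 0.05 (0.0630 to 0.0852). BMPR2 fell (−1.07 or −1.11).

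Genes of amnion and surface ectoderm, tissues that BMP4 induces from primed human stem cells, made up the list with the highest share of risers in both fits. Of 11 tested 7 rose, with a median of 1.16 or 1.03, where 1.25% of all genes rose. The list was chosen with earlier results of these data known, and GABRP and ISL1 were already markers of this comparison. Its rank among the lists is therefore no evidence for a tissue. Without background correction 4 of the 11 passed. This list shares 4 factors with the BMP targets above, so the 2 counts are not separate evidence. TFAP2A, the transcription factor AP-2 alpha of surface ectoderm and amnion, read 9.27, 9.37 and 9.43 in embryoid bodies, against 7.54, 7.51 and 5.57 in hESC. It was not detected on hESC 3, and its change of 2.48 was 1.83 without that array (limma adjusted p = 0.00896 and 0.00268). ISL1, a LIM homeobox factor of amnion and lateral mesoderm, read 9.73, 9.79 and 9.63 in embryoid bodies, against 7.82, 7.43 and 7.11 in hESC, a change of 2.26 (SE 0.29, limma adjusted p = 0.00155) or 2.09.

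GABRP, a GABA receptor subunit used as an amnion marker, was the steadiest of these genes, at 8.38, 8.59 and 8.34 in embryoid bodies, against 6.51, 6.31 and 6.50 in hESC. Its change was 2.0 (SE 0.10, limma adjusted p = 2.51e-05) or 2.03. HEY1, an effector of Notch and BMP signals, rose by 1.24 or 1.18, and DLX3, a homeobox factor of ectoderm and placenta, by 1.16 or 1.02. GATA2 was detected on 1 embryoid body array and on no hESC array, and a fold against the detection floor is at least 1.01, so its rise of 1.02 rests on values near background. IGFBP3, a binding protein of insulin-like growth factors, had a change of 1.39 or 1.43, but its adjusted p passed 0.05 when any array other than hESC 3 was left out (0.0552 to 0.0686). The summed linear intensity of the amnion markers TFAP2A, GABRP and ISL1 was 1803 to 1933 on embryoid body arrays and 276 to 503 on hESC arrays. These genes are among the risers above, so the sum is not separate evidence. VTCN1 is not among the genes tested.

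The trophoblast list overlaps with the amnion list and had 3 risers of 13 tested, of which TFAP2A and GATA2 are shared. The count was 1 without embryoid body array 2, and 1 without background correction. The third, SLC40A1, the iron exporter ferroportin, changed by 1.84 or 1.57 on its brighter probe and by 0.35 on its other one, and was detected on 1 of 3 hESC arrays. The hormone subunits CGA and CGB5, KRT7 and ELF5 are not among the genes tested, GCM1 had a log2 change of 0.57, and CDX2 one of −0.42. Genes for keratin 8 and 19 of simple epithelia, KRT8 (0.55) and KRT19 (0.42), did not pass.

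**Figure D2:**
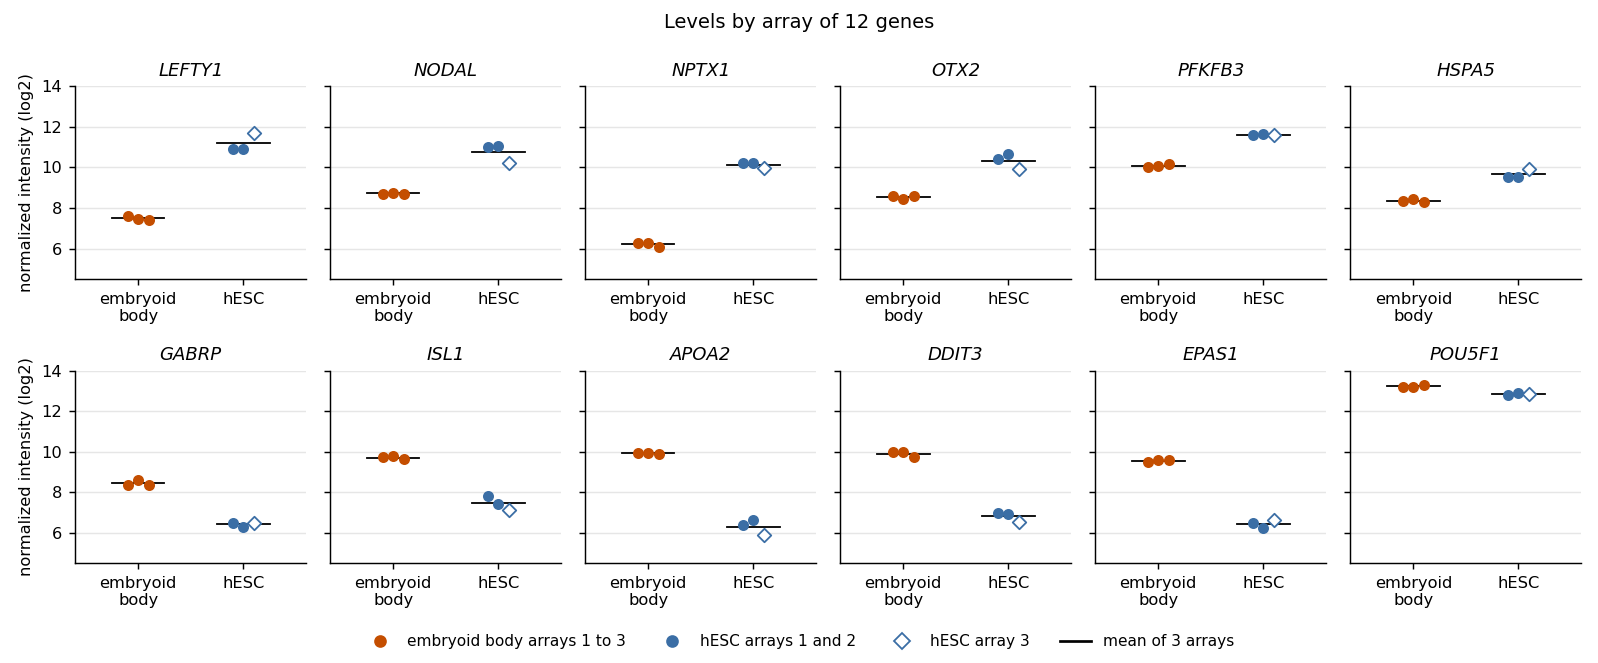
Normalized log2 intensity of 12 genes on each array, with embryoid bodies on the left and hESC on the right of each panel and bars at group means. The groups do not overlap in any panel, including POU5F1 (13.22 and 12.85 on average), whose difference is below 2-fold, and hESC 3 (diamond) lies within 1 log2 unit of the other hESC arrays in all 12.

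Secreted proteins of yolk sac and fetal liver formed a further set of risers: APOA2, FGB and APOA1 of 9 tested, with a median of 0.62 or 0.67. APOA2, an apolipoprotein of high-density lipoprotein, had the largest rise of all genes. It read 9.93, 9.96 and 9.89 in embryoid bodies, against 6.40, 6.62 and 5.88 in hESC (3.62, SE 0.17, limma adjusted p = 1.39e-05, or 3.41), and on hESC 3 it was not detected. FGB, the beta chain of fibrinogen, was detected on no hESC array and was at least 3.37-fold higher in embryoid bodies (limma adjusted p = 0.000252), with levels of 7.64, 7.70 and 7.57 in embryoid bodies, against 5.31, 5.21 and 5.41 in hESC. Here "at least" sets the brighter group's mean against, on each array of the other group, the higher of the probe's value and the lowest detected signal.

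For the 2 remaining plasma proteins with a large difference the call depends on which arrays are in the fit. APOA1 levels were 10.38, 10.24 and 10.12 in embryoid bodies, against 9.11, 8.97 and 6.68 in hESC. Its change was 2.0 (limma adjusted p = 0.0332) or 1.21 (0.00434), and leaving out any embryoid body array raised the adjusted p above 0.05 (0.0811 to 0.0983). AFP, the alpha-fetoprotein of yolk sac, read 10.20, 10.06 and 10.08 in embryoid bodies, against 8.36, 8.38 and 10.22 in hESC. It did not pass with all arrays (1.12, limma adjusted p = 0.0932) and passed without hESC 3 (1.74, limma adjusted p = 6.5e-05), since hESC 3 read as high as the embryoid bodies. The transcription factor GATA5, known from cardiac and gut endoderm, changed by 1.42 or 1.20 and was detected on no hESC array (at least 1.93-fold). SOX17 and TTR are not among the genes tested. The 3 tested yolk sac markers AFP, APOA1 and FGB summed to 2385 to 2707 on embryoid body arrays and 871 to 1342 on hESC arrays. APOA1 and FGB are among the risers above, so the sum is not separate evidence.

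None of the 13 tested core pluripotency genes passed in either fit. With 3.09% and 3.61% of all genes passing in the 2 fits, so short a list can hold none. Their median of 0.11 was 0.25 without hESC 3 and −0.05 under scaling by the array median. POU5F1 read 13.20, 13.19 and 13.27 in embryoid bodies, against 12.81, 12.92 and 12.83 in hESC, a log2 change of 0.37. SOX2 had −0.44, LIN28A −0.28 and L1TD1 0.25. The summed linear intensity of the 7 stem cell markers was 60755 to 63608 on embryoid body arrays and 56315 to 63721 on hESC arrays. The highest hESC sum is that of hESC 3, and the overlap of the ranges may rest on that array.

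Of 15 genes typical of the primed state of pluripotency 5 fell and none rose, with a median of −0.54 or −0.57: ZIC2, CDH2, OTX2, TCF7L1 and VIM. ZIC2, a zinc finger factor of epiblast and neural plate, read 11.14, 11.11 and 11.06 in embryoid bodies, against 13.37, 13.33 and 12.31 in hESC (−1.90 or −2.25). OTX2, the homeobox factor of primed epiblast and forebrain, read 8.60, 8.43 and 8.60 in embryoid bodies, against 10.44, 10.64 and 9.92 in hESC (−1.79, SE 0.17, limma adjusted p = 0.000413, or −2.0). CDH2, N-cadherin, changed by −1.90 or −1.99. TCF7L1, a repressor of WNT targets, fell (−1.63 or −1.48), and SOX11 passed without hESC 3 alone (−0.95 or −1.10).

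Of 13 genes of the naive list 2 rose, UTF1 and DNMT3L, and the median was 0.35 or 0.28. UTF1, a chromatin factor of pluripotent cells, read 10.37, 10.37 and 10.54 in embryoid bodies, against 9.09, 9.14 and 9.27 in hESC (1.26, limma adjusted p = 0.000145, or 1.31). DNMT3L, the inactive partner of the de novo DNA methyltransferases, read 8.84, 8.77 and 8.57 in embryoid bodies, against 7.56, 7.66 and 6.18 in hESC (1.59 or 1.11). DPPA2 (0.80 or 1.09) passed without hESC 3, and TFCP2L1 (0.90 or 0.97) missed the 2-fold limit in both fits. The naive factors KLF4 (0.21), DPPA3 (−0.73) and PRDM14 (−0.47) did not pass. The log2 change was above 0 for 11 of the 13. Under scaling by the array median the naive list had 1 gene higher and 1 lower.

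Anterior neuroectoderm, the fate that stem cells take when NODAL and BMP are blocked, was represented by 14 tested genes, of which 6 fell and none rose (median −0.55 or −0.74). NPTX1, a neuronal pentraxin, had the largest fall of all genes with all arrays, while without hESC 3 that of EOMES was larger. It read 6.29, 6.26 and 6.06 in embryoid bodies, against 10.24, 10.21 and 9.97 in hESC, a change of −3.94 (SE 0.32, limma adjusted p = 0.000208) or −4.02. HESX1, a homeobox repressor of the early forebrain, fell (−1.33 or −1.24), as did FABP7, a fatty acid binding protein of radial glia (−1.58 or −1.35). OTX2, ZIC2 and CDH2 are on this list as well. PAX6, SOX1, LHX2 and SIX3 are not among the genes tested, and SOX3 (−0.37), POU3F1 (−0.70) and NES (0.03) did not pass. FEZ1, an axon growth adaptor on none of these lists, fell (−2.30 or −2.45), and its 3 embryoid body arrays (8.79 to 8.85) lay well below the hESC arrays (10.82 to 11.29).

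The genes of primitive streak and mesendoderm depend on which hESC arrays are used. EOMES, a T-box factor of streak and endoderm, read 6.50, 6.42 and 6.38 in embryoid bodies, against 10.88, 10.91 and 6.47 in hESC. With all arrays the change was −2.99 (limma adjusted p = 0.0628). Without hESC 3 it was −4.46 (limma adjusted p = 4.57e-07), the largest in that fit. On hESC 3 the level lay among those of the embryoid bodies.

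The same order of arrays was seen for TBXT, brachyury, at 6.45, 6.34 and 5.96 in embryoid bodies, against 9.50, 9.54 and 6.15 in hESC (−2.15 or −3.27). SP5, a WNT-induced zinc finger factor, read 6.49, 6.71 and 6.48 in embryoid bodies, against 10.11, 10.12 and 5.72 in hESC (−2.09 or −3.55). DKK1, a WNT antagonist of the streak, read 6.97, 7.08 and 7.20 in embryoid bodies, against 10.21, 10.07 and 6.48 in hESC (−1.84 or −3.06). FOXA2, a pioneer factor of endoderm (−1.29 or −2.31), and MESP1, a factor of nascent mesoderm (−1.0 or −1.89), passed without hESC 3 alone as well. For all 6 genes hESC 1 and 2 were above every embryoid body array and hESC 3 was at or below the embryoid body range or inside it. The hESC arrays therefore disagree on whether streak genes were lower in embryoid bodies. A difference is seen against hESC 1 and 2 alone, which are nearly identical and may not be separate cultures.

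Of 11 tested genes of streak and mesoderm, 2 rose in both fits. ISL1 is described above, and TWIST1, a helix-loop-helix factor of mesenchyme, read 8.63, 8.59 and 8.49 in embryoid bodies, against 6.71, 6.94 and 7.98 in hESC (1.36 or 1.74). HAND1, a BMP target of lateral and extraembryonic mesoderm, had 10.80, 10.98 and 10.91 in embryoid bodies, against 10.57, 10.71 and 8.40 in hESC. Its change of 1.00 was 0.26 without hESC 3 and passed in neither fit. PDGFRA (−0.13) and KDR (0.15), surface receptors of early mesoderm, did not pass.

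**Figure D3:**
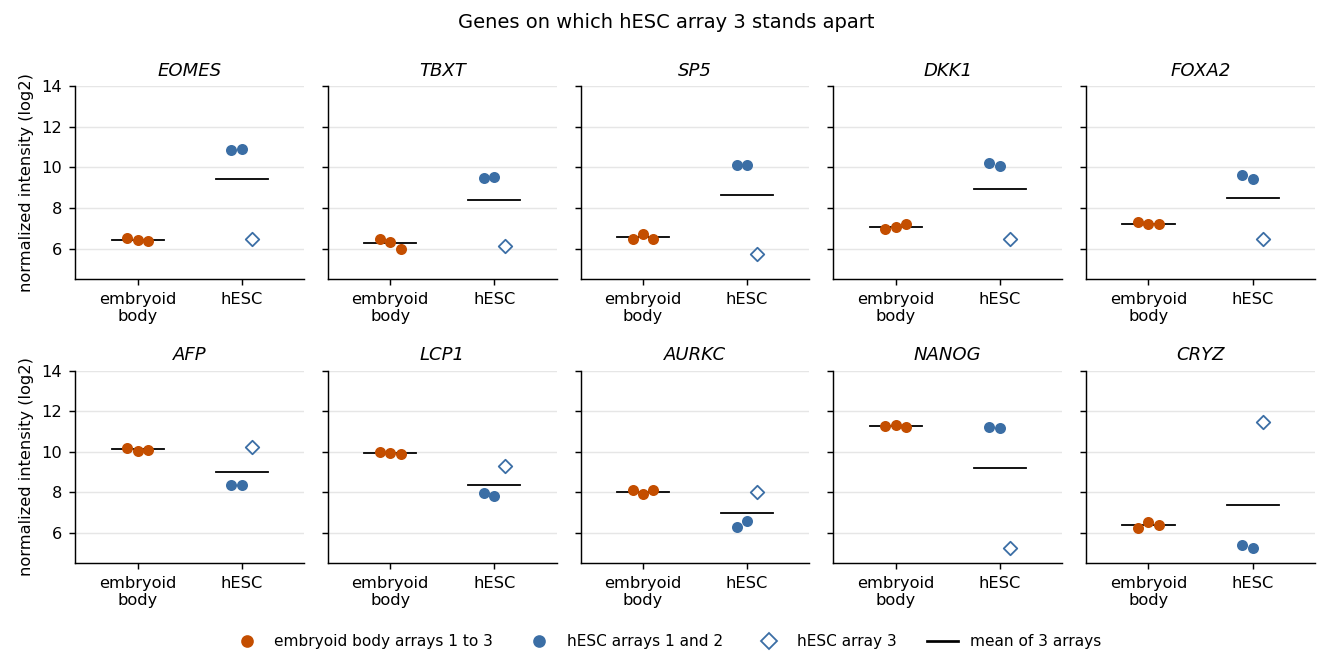
Normalized log2 intensity by array of 10 genes on which hESC 3 (diamond) stands apart from hESC 1 and 2, with embryoid bodies on the left of each panel. For EOMES, TBXT, SP5, DKK1 and FOXA2 hESC 3 reads with or below the embryoid bodies, for AFP and AURKC it reads with them and above hESC 1 and 2, and for NANOG (5.23) and CRYZ (11.45) away from all 5 other arrays.

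In all, 131 genes passed without hESC 3 alone, 39 higher and 92 lower in embryoid bodies, and 69 with it alone, 30 higher and 39 lower. Among those that passed without it, LCP1, the actin-bundling L-plastin, read 9.97, 9.96 and 9.87 in embryoid bodies, against 7.96, 7.83 and 9.28 in hESC (1.57 or 2.03). AURKC, the aurora kinase of germ cells (1.07 or 1.60), LGALS1, galectin 1 (0.98 or 1.35), and APLNR, the apelin receptor of mesendoderm (−1.21 or −2.33), are others, as is GAD1, which makes GABA (−1.42 or −2.74). Among those that needed hESC 3 were the monoamine oxidase gene MAOA (1.28 or 0.80), the cytokine gene IL32 (−1.50 or −0.96) and the mitochondrial regulator CHCHD2 (−1.32 or −0.95). NANOG read 11.29, 11.33 and 11.20 in embryoid bodies, against 11.23, 11.18 and 5.23 in hESC, and on hESC 3 it was not detected. Without that array its log2 change was 0.07 (limma adjusted p = 0.601).

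Of 34 tested genes of the WNT pathway 3 fell in both fits, FZD2, SFRP1 and CER1, and the median was −0.37 or −0.60. The number lower was 7 without hESC 3 and 11 under scaling by the array median, and none was higher in either. SFRP1, a secreted frizzled-like protein that binds WNT, read 10.72, 10.76 and 10.76 in embryoid bodies, against 12.84, 12.92 and 12.46 in hESC (−1.99, limma adjusted p = 0.0112, or −2.13). The receptor gene FZD2 read 6.38, 6.40 and 6.71 in embryoid bodies, against 8.87, 8.87 and 7.0 in hESC (−1.75 or −2.37), and its adjusted p was 0.0631 to 0.0907 when any array other than hESC 3 was left out. FZD7, the main frizzled receptor of hESC, had −0.74 and AXIN2, the general feedback target, −0.10. The ligand gene WNT5B (−1.04 or −1.53) passed without hESC 3 alone.

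Of 30 tested genes of the FGF and ERK pathway 2 fell in both fits, FOS and FGF17, and 4 were lower without hESC 3 or under scaling by the array median. The median was −0.01 or −0.11. The feedback inhibitors SPRY4 (0.42), SPRY2 (0.21) and DUSP6 (−0.54), which follow ERK activity, stayed under 2-fold. The ETS factor ETV5 read 10.08, 10.06 and 10.09 in embryoid bodies, against 9.20, 9.15 and 8.83 in hESC, and passed with all arrays alone (1.01 or 0.90). FGF17, a ligand of the streak and midbrain, read 5.66, 5.46 and 6.20 in embryoid bodies, against 8.30, 8.41 and 6.10 in hESC, with overlap through hESC 3 (−1.83 or −2.59). Its adjusted p was 0.0758 to 0.140 when any array other than hESC 3 was left out.

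The immediate early genes FOS and FOSB, which serum, stress and ERK induce within minutes, were much lower in embryoid bodies. FOS read 8.51, 8.48 and 8.36 in embryoid bodies, against 11.47, 11.48 and 10.12 in hESC (−2.57, SE 0.36, limma adjusted p = 0.00213, or −3.02). FOSB changed by −2.49 or −2.92 and was detected on 2 of 3 embryoid body arrays. EGR1 (−1.05 or −1.48) and IER3 (−0.96 or −1.43) passed without hESC 3 alone. JUN (0.18), KLF6 (0.10), IER2 (0.28) and DUSP1 (−0.45) did not pass, so of 22 tested immediate early genes 2 fell and none rose.

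Of 16 tested Notch pathway genes 3 rose: the ligand DLL1 and the effectors HES4 and HEY1. DLL1 read 9.37, 9.36 and 9.36 in embryoid bodies, against 7.89, 7.71 and 6.90 in hESC (1.87, SE 0.22, limma adjusted p = 0.00113, or 1.57). HES4 read 11.56, 11.49 and 11.38 in embryoid bodies, against 9.93, 9.89 and 9.76 in hESC (1.61, SE 0.12, limma adjusted p = 0.000156, or 1.56). HEY2 passed without hESC 3 alone (0.95 or 1.15), HES1 (−0.18) and HES5 (−0.09) did not pass, and the list's median was 0.03. In the retinoic acid pathway (14 tested), ALDH1A1, which makes retinoic acid, rose by 1.72 or 1.77, and CYP26A1, which degrades it, changed by −1.35 or −1.51.

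A minority of genes of the integrated stress response rose. On the list of the unfolded protein response of the endoplasmic reticulum (ER) none rose and 1 fell. ER stress also starts the integrated stress response, so the contrast depends on how genes were assigned to the lists. The difference between the lists was not tested. The integrated stress response is the programme that follows phosphorylation of eIF2 alpha, under lack of amino acids, ER stress or other stresses, and acts through the factor ATF4. The ER unfolded protein response adds ER chaperones through ATF6 and XBP1. Of 36 tested genes of the first list 5 rose, DDIT3, GDF15, ATF5, CHAC1 and TRIB3, and none fell (median 0.39 or 0.52). Of 29 tested genes of the second, 1 fell, HSPA5, and none rose (median −0.25 or −0.21). Under scaling by the array median, which moves the median of all genes to −0.28, these counts were 4 higher and 1 lower for the first list and 0 higher and 1 lower for the second.

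DDIT3, the transcription factor CHOP, read 9.99, 9.97 and 9.76 in embryoid bodies, against 6.98, 6.92 and 6.55 in hESC, a change of 3.09 (SE 0.23, limma adjusted p = 0.000154) or 2.96. ATF5, a related factor induced with it, lay at 10.88 or above on all 3 embryoid body arrays (mean 10.92), against 8.86, 9.06 and 9.48 in hESC (1.79 or 1.96). GDF15, a cytokine released by stressed cells, read 9.99, 9.92 and 9.97 in embryoid bodies, against 7.61, 7.50 and 7.50 in hESC (2.43, SE 0.18, limma adjusted p = 0.000154, or 2.41). For these 3 genes every embryoid body array exceeded every hESC array by more than 2-fold.

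CHAC1, which degrades glutathione, read 8.24, 8.27 and 8.22 in embryoid bodies, against 6.39, 6.84 and 7.44 in hESC (1.35 or 1.63), and the pseudokinase TRIB3, which dampens ATF4, read 9.50, 9.62 and 9.36 in embryoid bodies, against 8.21, 7.95 and 8.46 in hESC (1.29 or 1.41). Without background correction CHAC1 stayed under 2-fold (0.80), and so did TRIB3 under median scaling (0.93). ATF4 itself, which is regulated mainly in its translation, had 13.72 in both groups (0.00). Among genes of amino acid supply, PCK2 passed without hESC 3 (0.91 or 1.03), and ASNS, asparagine synthetase, had 0.89 or 0.97 with an adjusted p of 0.0139 in limma, just under 2-fold. PHGDH (0.01), PSPH (0.02), SHMT2 (0.10) and the transporter gene SLC7A5 (−0.91, limma adjusted p = 0.0922) did not pass. None of 18 cytosolic tRNA synthetase genes passed, where 3.09% of all genes did, a share at which so short a list can hold none.

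HSPA5, the main ER chaperone BiP, read 8.36, 8.44 and 8.29 in embryoid bodies, against 9.51, 9.55 and 9.93 in hESC (−1.29, SE 0.12, limma adjusted p = 0.000413, or −1.16). The groups lie more than 2-fold apart. HYOU1 (−0.45), CRELD2 (−0.45), SDF2L1 (−0.45), CANX (−0.44), HSP90B1 (−0.12) and DNAJB9 (0.30) stayed under 2-fold. The pro-apoptotic BH3-only gene HRK rose with the stress genes: it read 9.77, 9.75 and 9.66 in embryoid bodies, against 7.04, 6.89 and 7.75 in hESC (2.50, SE 0.19, limma adjusted p = 0.000178, or 2.76). BBC3 (0.19), PMAIP1 (0.61) and BCL2L11 (−0.13), of the same class, did not pass. Of 16 tested p53 targets GDF15 rose, TP53I3 fell (−1.15 or −1.12), and CDKN1A (0.43) and MDM2 (−0.14) did not pass.

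**Figure D4:**
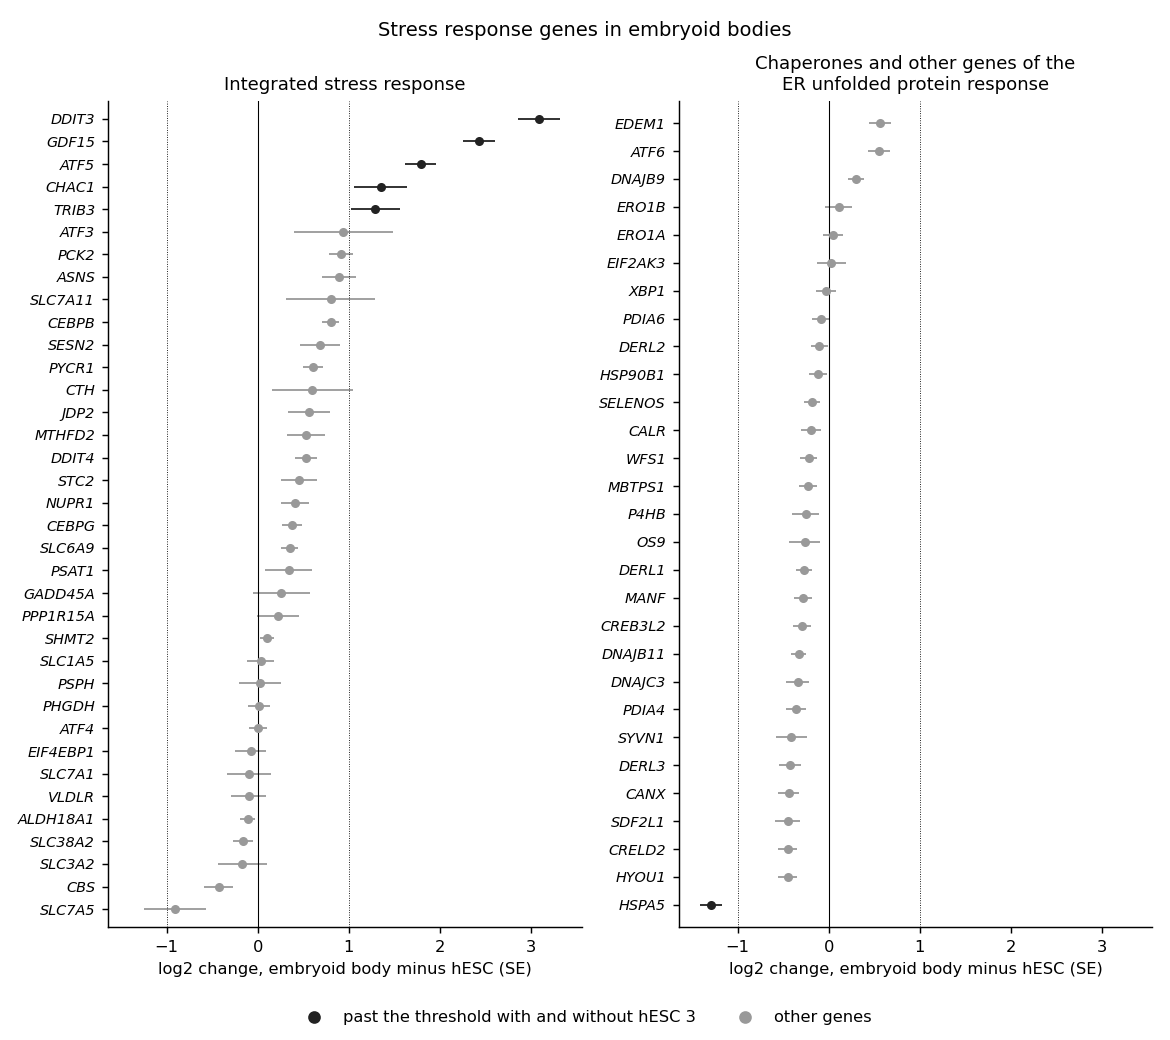
Log2 change (embryoid body minus hESC, all arrays) with its standard error for the 36 tested genes of the integrated stress response (left) and the 29 of the ER unfolded protein response (right), each sorted by change. The 5 black points on the left lie above 1 and the single black point on the right, HSPA5, lies at −1.29; grey genes did not pass in both fits.

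The response elements of both programmes can be shown in the promoters of these genes. The sequences are RefSeq's, build GRCh38.p14, read 5′ to 3′ on the gene's strand, and they end before the transcription start. Capitals mark TGATGNAA, the core of the element bound by ATF4 with a C/EBP partner, or the ER stress element, CCAAT and CCACG with 9 bases between them, searched on both strands within 250 bases upstream. CHAC1 (chr15:40953247-40953284, plus strand) and ASNS (chr7:97872454-97872491, minus strand) stand for the first list, HSPA5 (chr9:125241376-125241424, minus strand) and HSP90B1 (chr12:103930201-103930354, plus strand) for the second.
CHAC1: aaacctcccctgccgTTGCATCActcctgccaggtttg
ASNS: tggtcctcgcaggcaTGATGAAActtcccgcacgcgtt
HSPA5: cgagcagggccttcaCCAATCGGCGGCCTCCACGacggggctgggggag
HSP90B1: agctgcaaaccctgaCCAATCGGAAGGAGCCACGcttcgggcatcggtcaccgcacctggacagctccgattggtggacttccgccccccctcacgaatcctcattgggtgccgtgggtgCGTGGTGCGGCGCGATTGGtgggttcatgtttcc
The match in CHAC1 is on the opposite strand, 209 to 202 bases before the start, and that in ASNS is on the gene's strand, 68 to 61 bases before it. TGATGNAA was found for 6 of the 29 tested stress response genes with a promoter in the table, ATF3, CEBPG, CHAC1, JDP2, ASNS and SLC1A5, and for 3.14% of all 35116 promoters. The ER stress element was found for 8 of 27 ER genes, HSPA5, HSP90B1, XBP1, CALR, CANX, CRELD2, PDIA6 and ERO1B, and for 0.074% of all promoters. Of the first 6 genes CHAC1 rose, and of the 8 ER genes HSPA5 fell and none rose.

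Of 6 tested metallothioneins, small proteins that bind zinc and copper, 2 rose in both fits, MT1F and MT1H, and the median was 1.08 or 0.96. MT1F read 12.66, 12.79 and 12.79 in embryoid bodies, against 11.32, 11.42 and 10.88 in hESC (1.54, SE 0.16, limma adjusted p = 0.000543, or 1.38). MT1H read 10.90, 10.98 and 10.89 in embryoid bodies, against 9.52, 9.53 and 10.07 in hESC (1.22 or 1.40). MT1E (1.03 or 0.90) and MT2A (1.13 or 0.91) passed with all arrays alone, MT1X (0.92 or 1.01) without hESC 3 alone, and MT1G (0.86 or 0.88) in neither fit. The members are so alike in sequence that probes may read each other's transcripts, which makes the count of genes uncertain. Under scaling by the array median 1 of 6 passed, and under no background correction 2.

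Metallothionein promoters carry metal response elements, which the zinc sensor MTF1 binds. The upstream sequence of MT1H, which rose and has a promoter in the table, shows 4 matches to TGCACNC in capitals, searched on both strands (RefSeq, GRCh38.p14, chr16:56669576-56669813, plus strand).
MT1H: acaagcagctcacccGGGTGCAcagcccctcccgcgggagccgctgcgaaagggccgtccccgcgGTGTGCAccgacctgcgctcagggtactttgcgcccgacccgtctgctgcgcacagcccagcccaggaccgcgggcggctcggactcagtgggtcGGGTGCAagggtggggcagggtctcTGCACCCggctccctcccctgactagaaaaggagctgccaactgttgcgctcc
All 3 tested metallothioneins with a promoter in the table (MT1H, MT1X and MT2A) held this motif, as did 9.87% of all promoters. Here too genes were counted by any promoter and the share by single promoters.

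Of 20 tested genes of cholesterol synthesis, which SREBP2 controls together, 5 fell, ACAT2, HMGCS1, SQLE, LSS and CYP51A1, none rose, and the median was −0.46 or −0.55. SQLE, squalene epoxidase, read 11.05, 11.08 and 11.21 in embryoid bodies, against 12.37, 12.35 and 12.12 in hESC (−1.16, SE 0.10, limma adjusted p = 0.000247, or −1.24). HMGCS1, which makes HMG-CoA, read 11.24, 11.21 and 11.21 in embryoid bodies, against 12.33, 12.53 and 12.10 in hESC (−1.10 or −1.21). CYP51A1, a sterol demethylase, was detected on no embryoid body array and was at least 1.79-fold lower there. IDI1 (−0.87), DHCR7 (−0.79) and MSMO1 (−0.79) stayed under 2-fold. The 5 changes are close to the 2-fold limit: 2 genes of the list passed without hESC 2, 3 without background correction and 8 under scaling by the array median.

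Glycolysis genes held 3 falls among 21 tested (median −0.30 or −0.29). PFKFB3 and PFKFB4 make the activator of phosphofructokinase. PFKFB3 read 10.00, 10.08 and 10.17 in embryoid bodies, against 11.58, 11.63 and 11.61 in hESC (−1.53, SE 0.11, limma adjusted p = 0.000128, or −1.52). PFKFB4 changed by −1.44 or −1.62, and the aldolase gene ALDOC by −1.07 or −1.06. HK2 (−0.82), SLC2A1 (−0.84) and LDHA (−0.55) stayed under 2-fold, and PGK1 (0.05) and HIF1A (−0.15) were near 0.

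In the hypoxia list (25 tested), EPAS1, the oxygen-regulated factor HIF2 alpha, rose while the oxygen sensor EGLN1 and the target STC1 fell. EPAS1 read 9.48, 9.58 and 9.58 in embryoid bodies, against 6.47, 6.26 and 6.65 in hESC, a change of 3.09 (SE 0.12, limma adjusted p = 7.01e-06) or 3.18, and every embryoid body array lay far above every hESC array. STC1, the secreted stanniocalcin 1, read 8.98, 9.06 and 8.74 in embryoid bodies, against 11.03, 10.93 and 11.59 in hESC (−2.26 or −2.05). EGLN1, a prolyl hydroxylase, changed by −1.19 or −1.28 and was detected on 2 of 3 embryoid body arrays, and EGLN3 (−1.11 or −0.92) passed with all arrays alone. With all arrays 4 genes of the list were lower, against 2 without embryoid body array 3 and 1 without background correction. VEGFA (0.84), NDRG1 (0.86), ADM (0.50) and BNIP3 (−0.16) did not pass.

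Of 6 tested genes of caveolae, flask-shaped pits of the cell membrane, 2 that code for their coat fell. CAV1 read 9.30, 9.17 and 9.17 in embryoid bodies, against 11.20, 11.16 and 12.42 in hESC (−2.38, SE 0.41, limma adjusted p = 0.00496, or −1.97), and CAVIN3 8.92, 8.88 and 8.73 in embryoid bodies, against 10.64, 10.72 and 10.43 in hESC (−1.75 or −1.84). CAV2 (−1.05 or −0.65) and CAVIN1 (−0.40) did not pass. All 3 embryoid body arrays were below all 3 hESC arrays for both genes.

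Fibroblast markers gave no single direction. Of 18 tested, 4 rose (LUM, COL3A1, TWIST1 and DCN) and 3 fell in both fits (PDGFRB, VIM and CD44). Without background correction 1 was higher and 1 lower, and 2 were lower without hESC 2 or without embryoid body array 3. LUM, the collagen-binding proteoglycan lumican, read 10.08, 9.89 and 10.02 in embryoid bodies, against 7.26, 7.15 and 5.82 in hESC (3.26, SE 0.34, limma adjusted p = 0.000606, or 2.79). COL3A1, collagen III, read 7.75, 7.84 and 7.83 in embryoid bodies, against 6.29, 6.10 and 5.79 in hESC (1.75 or 1.61). Both were detected on 2 of 3 hESC arrays, and DCN, decorin, on none of them (at least 1.23-fold higher). VIM, vimentin, read 12.06, 11.98 and 12.01 in embryoid bodies, against 13.15, 13.11 and 13.63 in hESC (−1.28 or −1.12). The 11 tested fibroblast markers of the marker list summed to 7510 to 7745 on embryoid body arrays and 6722 to 9526 on hESC arrays, with hESC 3 the highest. What part fibroblast RNA has in these genes was not tested.

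Of 23 listed genes of endothelium and blood 5 were tested, so these cell types were hardly covered by the named probes. PECAM1, CDH5, TIE1, CLDN5, HBE1, HBZ and GATA1 are not among the genes tested, and KDR (0.15) and PTPRC (0.20) did not pass. TEK, the angiopoietin receptor TIE2, read 7.82, 7.89 and 7.91 in embryoid bodies, against 9.16, 9.40 and 10.87 in hESC (−1.93 or −1.40). CXCL12, a chemokine of stromal cells, rose by 1.11 or 1.10. Genes of cell division (26 tested, median 0.01 or −0.02) and HOX genes (6 tested) held no gene that passed in either fit. Of all genes 3.09% passed with all arrays and 3.61% without hESC 3, shares at which lists this short can hold none.

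Neuropeptides and secretory proteins of neurons went both ways: of 14 tested, VGF, TAC1 and NPTX2 rose and NPTX1 and GAL fell. VGF, a secreted granin-like protein, read 10.47, 10.62 and 10.61 in embryoid bodies, against 8.73, 8.91 and 9.22 in hESC (1.62, SE 0.14, limma adjusted p = 0.000344, or 1.75). TAC1, the precursor of substance P, rose by 1.47 or 1.60. GAL, galanin, which is abundant in undifferentiated hESC, read 11.08, 11.09 and 11.08 in embryoid bodies, against 12.80, 12.74 and 13.17 in hESC (−1.82 or −1.69). The pentraxins thus moved apart, with NPTX2 at 12.37, 12.39 and 12.42 in embryoid bodies, against 11.20, 11.35 and 10.99 in hESC (1.21 or 1.12).

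Of 17 tested genes of MHC class I and the interferon response 2 rose, B2M and BST2, and 1 fell, IFI6. The number higher was 4 without hESC 2, and 1 without embryoid body array 1 or 2. B2M, the light chain of MHC class I, read 12.19, 12.13 and 12.16 in embryoid bodies, against 10.78, 10.87 and 10.48 in hESC (1.45, SE 0.17, limma adjusted p = 0.00107, or 1.34). BST2, the antiviral tetherin, read 11.74, 11.69 and 11.71 in embryoid bodies, against 10.46, 10.34 and 8.52 in hESC (1.94 or 1.31). The interferon gene IFI6 changed by −1.29 or −1.32, and ISG15 (0.32), IFIT1 (0.92), MX1 (−0.53) and TAP1 (−0.29) did not pass.

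Among the 15 largest rises and falls whose groups do not overlap are genes on none of the lists. P3H2, a prolyl hydroxylase of collagen IV, read 9.92, 9.80 and 9.88 in embryoid bodies, against 12.12, 12.11 and 12.12 in hESC (−2.25, SE 0.08, limma adjusted p = 4.95e-06). RORB, a nuclear receptor of retina and cortex, and TSPYL5 were detected on no embryoid body array and were at least 3.64-fold and 2.11-fold lower there. AKR1B10, an aldo-keto reductase that reduces retinal and other aldehydes, was detected on no hESC array and was at least 3.22-fold higher in embryoid bodies (limma adjusted p = 0.00173). HAPLN1, a link protein of hyaluronan matrix (2.18 or 1.62), and PLA2G2A, a secreted phospholipase (2.13 or 1.48), rose too. CGAS, the sensor of cytosolic DNA, had 4.98, 4.97 and 7.10 in embryoid bodies, against 8.39, 8.75 and 7.35 in hESC (−2.48 or −2.88). It was detected on 1 embryoid body array, whose level is near the lowest hESC array.

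Genes of the X chromosome were called higher more often than those of the other chromosomes, a pattern chosen after the values were seen and given with no test. Of 445 tested genes on X, 20 were higher with all arrays (4.49%, beside 1.50% of all genes) and 16 in both fits (3.60%), and 1, IRAK1, was lower (−1.08). Without hESC 3, 16 were higher (3.60%, beside 1.58% of all genes) and 3 lower. On single autosomes the share called higher ran up to 2.59%, on chromosome 19. TSPAN7, a tetraspanin, rose by 1.90 or 1.87, DOCK11, an activator of CDC42, by 1.79 or 1.99, and GPR143, a receptor of pigment cells, by 1.93 or 2.07. The median of all X-linked genes was 0.12 or 0.08. Under scaling by the array median 11 genes of X were higher (2.47%, beside 0.776% of all genes) and 11 lower, and without background correction 10 were higher (2.25%, beside 0.617% of all genes).

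**Figure D5:**
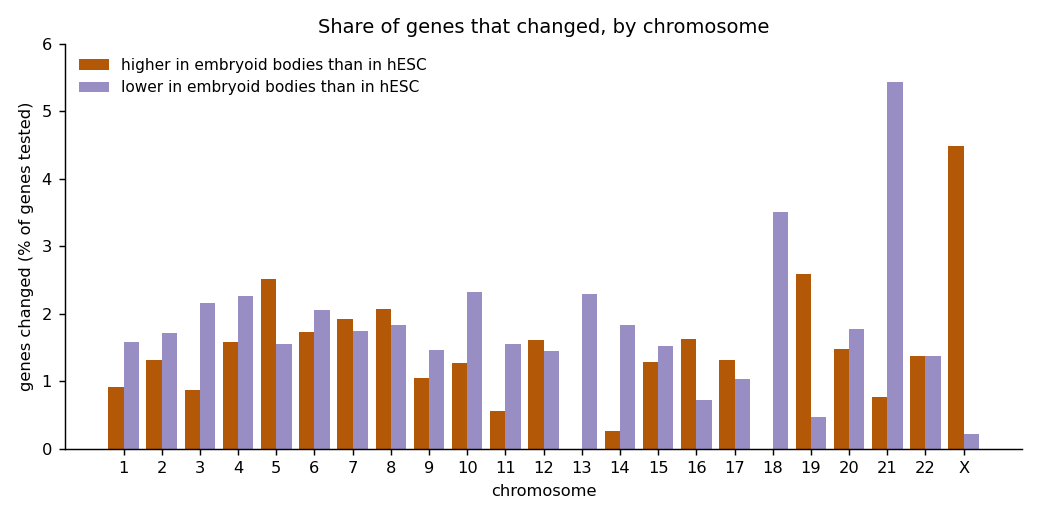
Percent of tested genes called higher or lower in embryoid bodies (all arrays) on each chromosome. X has the highest bar for genes called higher (4.49%), and the highest bar for genes called lower is on chromosome 21 (5.43%).

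Where a gene has several probes they mostly pointed the same way. Of 68 genes that passed with all arrays and have more than 1 probe, all probes kept 1 sign in 67, and all passed the test in 32. PDCL3P4, a pseudogene with a change of 2.77, has a second probe at 0.05, and NPY5R, a neuropeptide Y receptor gene at 1.71, one at 0.10, so the probes of these 2 genes disagree. By probe, 459 of 15592 named probes passed with all arrays, 216 higher and 243 lower.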

How the data were processed

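RNA of 9 samples was hybridised to 1-colour Illumina BeadChips. The authors deposited bead intensity per probe, not normalized, with a detection p-value per probe and array. The authors also deposited a table of log2 values, whose processing is not stated and which was used as an alternative. BeadStudio is named in the submitters' processing notes, and its version is not given in the sources used here.

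With limma 3.58.1 in R 4.3.3, intensities were background-corrected and quantile-normalized with neqc (offset 16), with negative controls inferred from the detection p-values. Probes detected at p under 0.05 on at least 3 arrays were kept, and names came from GEO's platform annotation, so unnamed probes are outside the gene counts. Each gene was represented by its probe with the highest mean, and lmFit and eBayes were run on all 9 arrays. The test was two-sided, with Benjamini-Hochberg adjustment over all 11991 genes. The number of arrays limits the precision, and no depth applies. The limma fit and the threshold were tested on simulated log2 values with known changes. Background correction, normalization, the filter and probe choice were not covered, and the simulated arrays of a group varied independently.

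The genes named were the 15 largest non-overlapping changes in each direction, up to 4 members of each list and role by size of change, cell type markers, genes that depend on hESC 3, and genes whose probes disagree. Others were named after their values were seen, as examples of list members below the threshold or as X-linked genes. The members and lists were chosen with earlier results of these data known. Alternatives covered background correction, normalization, filters, probe choice, the deposited log2 values, the arrays in the fit, the replicate number as a block and leaving out each array. Same-numbered arrays did not deviate together (correlations of −0.08, −0.06 and −0.10).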

Additional observations from a re-analysis of the deposited data

Results flagged for a closer look

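Probes with no gene name in the annotation used here were outside the gene counts. Of 6091 such probes detected, 130 passed the same test in embryoid bodies against hESC, 61 higher and 69 lower, and the report's comparisons do not use them.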

How the results depend on the processing

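Without background correction 147 genes passed (74 higher, 73 lower) and 166 named probes, and 85 genes depended on hESC 3, where 200 did with it. With the authors' deposited log2 values, 151 genes passed (77 higher, 74 lower) and 170 probes, and 81 depended on hESC 3. Scaling by the array median gave 591 (93 higher, 498 lower) and 743 probes, with 15.7% of calls higher against 48.5%. Scaling over detected probes, chosen after seeing the data, gave 203 higher and 155 lower (56.7% higher). With near-identical arrays averaged, 0 genes and 0 probes passed in limma, 0 higher and 0 lower, though 344 of the 371 genes were still 2-fold apart. That fit had 2 residual degrees of freedom, from hESC 3 and progenitor array 2, so it had little power to call a gene. Leaving out 1 array gave 317 to 433 genes, 153 to 189 higher and 164 to 244 lower, and 387 to 529 probes. ZNF280D ran from −1.18 to 1.29 when 1 array was left out, with the sign turned to 1.29 without hESC 3. With the replicate number as a block, 361 genes passed (180 higher, 181 lower). With only the embryoid body and hESC arrays in normalization and fit, 372 passed (182 higher, 190 lower). Without embryoid body array 1, 2 or 3, 17, 19 and 15 of the 337 named genes lost their call.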
